A study of Mus musculus with 28 samples.

Results

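The Toll-like receptor genes of the healing mouse skin wound were followed from day 0 to day 14: Tlr1, Tlr2, Tlr4, Tlr5, Tlr6, Tlr7, Tlr8, Tlr9 and Tlr13, together with Cd14, the co-receptor of Tlr4. These 10 genes were taken by name from a table of 29068 genes, and all 10 passed the filter on low counts that left 18107 genes for testing. Whole-tissue RNA was sequenced in 28 libraries, 4 for each of days 0, 3, 5, 7, 10, 12 and 14 of natural wound healing. Per the labels the mice were C57BL/6J, and day 0 was the control time. The study's methods describe the same animals as MLKL+/+ mice, 8 weeks old, wounded on the back with a skin punch down to the fascia and sampled over the whole wound site with its scab and epithelial margins. No other genotype or agent is named for these libraries. The methods name day 1, the day of wounding, as the earliest time where the labels write Day0, so whether the day 0 tissue had been wounded cannot be told apart here, and it is called day 0 throughout. The submitters' design text speaks of 5 repeats a day. The series holds 4 libraries a day, and all of them were analysed here. The labels do not say that the libraries came from separate mice, so the p-values below rest on the spread between libraries. The main test shares 1 spread per gene over all 7 days.

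Toll-like receptors are membrane proteins of innate immunity that recognise molecules of microbes and, in some cases, of injured tissue. Tlr1, Tlr2, Tlr4, Tlr5 and Tlr6 act mainly at the cell surface, while Tlr7, Tlr8, Tlr9 and Tlr13 recognise nucleic acids inside endosomes. After binding, they recruit adaptors such as Myd88 and Ticam1, which pass the signal through Irak and Traf proteins to NF-kB and interferon regulatory factors. In skin they are found on macrophages, neutrophils, dendritic cells, mast cells and, for some members, keratinocytes.

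All 10 genes were higher on day 3 than on day 0, and 9 of the 10 were lower on day 14 than on day 0. Counts were tested with edgeR's quasi-likelihood test in a single fit of the 28 libraries, and a gene was called at a Benjamini-Hochberg adjusted p under 0.05 over the 18107 genes. On day 3, 10 of 10 members were called higher, against 31.8% of all genes tested. The largest increase was that of Cd14, 16.7-fold, and the smallest that of Tlr5, 1.28-fold. On day 5, 9 members were called higher (29% of all genes) and on day 7 again 9 (25.6%), Tlr5 being the exception on both days. On day 10, Cd14, Tlr1, Tlr6 and Tlr13 were still called higher, 4 members against 23.5% of all genes, and Tlr5, Tlr7 and Tlr9 were called lower, 3 members against 26.9%. On day 12, no member was called higher and 4 were called lower (25.6% of all genes), namely Tlr2, Tlr5, Tlr9 and Cd14. Tlr13 alone was higher on that day at an unadjusted p under 0.05, and the count called higher was 0 with DESeq2, 1 with limma voom and 2 with limma on log2(FPKM + 1). On day 14, 9 members were called lower, against 34.5% of all genes, and Tlr13 was not. Over days 3, 5, 7, 10, 12 and 14 the median log2 fold change of the 10 members was 1.83, 1.57, 0.82, 0.14, -0.14 and -1.40, while that of all genes tested lay between -0.06 and 0.00. Under the limits of the study's methods, a log2 fold change over 1.5 with an unadjusted p under 0.05, 7 members were higher on day 3 (6.5% of all genes), 5 on day 5 (5.61%) and 4 on day 7 (4.66%). By the same limits no member was higher or lower on day 10, when 4.33% of all genes were higher and 5.14% lower, or on day 12, when 3.89% were higher and 3.51% lower. On day 14, 4 members were lower by these limits, against 8.83% of all genes. A test over all days called 10 of 10 members, as it did 89.5% of all genes. The comparisons with day 0 share its 4 libraries.

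**Figure D1:**
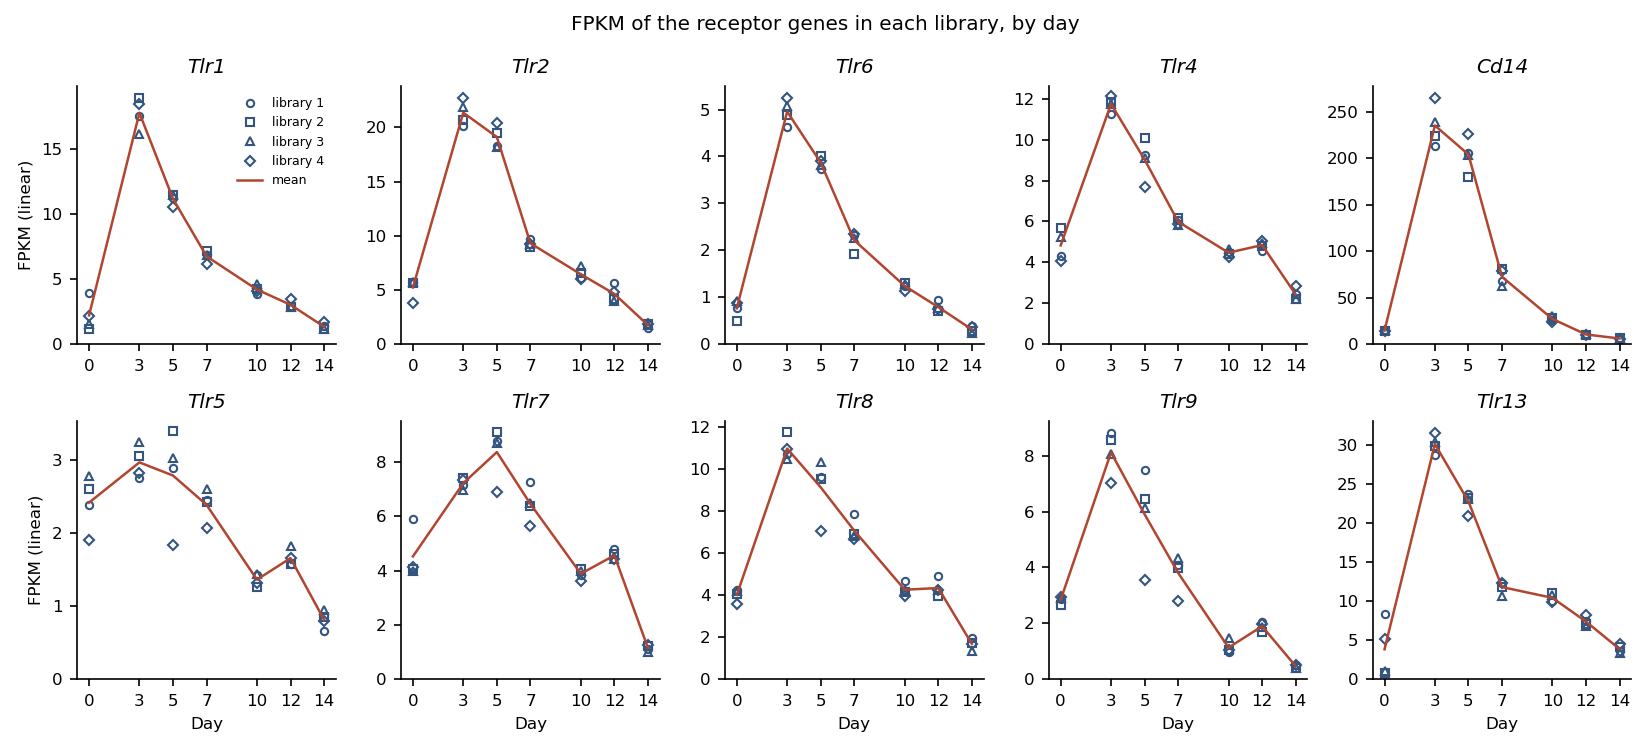
FPKM (fragments scaled to gene length and library depth, linear axes from 0) of the 10 genes against day, with 1 symbol for each of the 4 libraries of a day and a line through the day means. The means of 9 genes are highest on day 3 and that of Tlr7 on day 5, and the day 0 libraries of Tlr13 spread from 0.800 to 8.29.

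The genes lie at 8 separate places in the mouse genome, on chromosomes 1, 3, 4, 5, 9, 18 and X (RefSeq, GRCm38.p6). Tlr1 (chr5:64924680-64933600) and Tlr6 (chr5:64953092-64970942) are neighbours, as are Tlr8 (chrX:167241123-167264329) and Tlr7 (chrX:167303380-167330574). Tlr13 lies elsewhere on the X chromosome (chrX:106143275-106160493), Tlr5 at chr1:182954752-182976044, Tlr2 at chr3:83836272-83841824, Tlr4 at chr4:66827551-66846581 and Tlr9 at chr9:106222598-106226876. Since the 10 members were all higher on day 3, the sequences before their transcription starts were examined for the core of the PU.1 site, GAGGAA or its reverse complement TTCCTC, PU.1 being a transcription factor of myeloid cells. The RefSeq promoter table held windows of 300 bases, 250 before and 50 after the start, for 7 of the 10 members, not for Tlr4, Tlr7 and Cd14. These were 9 windows, since Tlr1 and Tlr6 have 2 each. The PU.1 core was found in 4 of the 9 windows, belonging to Tlr1, Tlr8, Tlr9 and Tlr13, and in 28.1% of all 32544 windows of the table. The other window of Tlr1, which is not printed, holds no core. The NF-kB core GGGAA, which shares the letters GGAA with it, was found in windows of 5 of the 7 genes and in 62.7% of all windows. A match of this kind is a description of the letters and does not show binding. The 250 bases before the start are printed for the members with the largest changes of a receptor on day 3, Tlr1 and Tlr13, for the member with the largest decrease on day 14, Tlr9, and for the member that changed least on day 3, Tlr5. They run 5′ to 3′ along the strand of the gene, with the PU.1 core in capitals. The windows are chr5:64933559-64933808 on the minus strand for Tlr1 and chrX:106143025-106143274, chr9:106222348-106222597 and chr1:182954538-182954787 on the plus strand for Tlr13, Tlr9 and Tlr5.
Tlr1: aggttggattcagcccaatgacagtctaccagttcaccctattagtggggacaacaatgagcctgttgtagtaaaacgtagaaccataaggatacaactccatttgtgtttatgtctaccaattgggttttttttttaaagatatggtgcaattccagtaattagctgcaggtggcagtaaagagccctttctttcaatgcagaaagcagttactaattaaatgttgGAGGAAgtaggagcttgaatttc
Tlr13: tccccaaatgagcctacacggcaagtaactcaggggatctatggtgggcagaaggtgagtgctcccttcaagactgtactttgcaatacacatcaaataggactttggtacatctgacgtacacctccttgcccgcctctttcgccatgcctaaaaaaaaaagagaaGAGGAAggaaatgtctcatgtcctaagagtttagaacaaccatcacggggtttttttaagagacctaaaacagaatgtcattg
Tlr9: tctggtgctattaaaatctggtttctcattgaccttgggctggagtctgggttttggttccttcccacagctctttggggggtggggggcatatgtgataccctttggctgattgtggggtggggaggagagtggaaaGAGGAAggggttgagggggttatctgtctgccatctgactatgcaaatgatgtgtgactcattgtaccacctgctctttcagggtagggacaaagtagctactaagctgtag
Tlr5: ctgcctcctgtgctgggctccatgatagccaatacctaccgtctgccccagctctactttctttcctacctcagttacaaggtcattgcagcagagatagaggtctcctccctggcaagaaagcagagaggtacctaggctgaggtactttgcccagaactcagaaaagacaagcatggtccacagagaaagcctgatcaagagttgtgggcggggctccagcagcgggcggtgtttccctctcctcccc
The core began 23 bases before the start in Tlr1, 83 bases before it in Tlr13 and 112 bases before it in Tlr9, and none was present in the stretch of Tlr5. The window of Tlr9 held another core 13 bases after the start, outside the printed stretch.

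The libraries held 36706513 to 40655764 counts, so depth hardly differed between days. Markers of skin cells were present in every library: the 6 keratinocyte markers summed to between 3947 and 9071 CPM, counts scaled to library depth. The 4 libraries of day 0 differed far more among themselves than those of later days. The biological coefficient of variation was 26.5% on day 0 and 5.77% to 10.8% later. The edgeR p-values against day 0 therefore do not rest on the day 0 spread alone. The exact permutation tests below use only the libraries of the 2 days compared. Of the day 0 libraries, 1 and 4 had the lower fibroblast marker sums (24244 and 13990 CPM, against 54702 and 52758 in libraries 2 and 3). They also had the higher skeletal muscle marker sums (25564 and 26893, against 16010 and 16397). Without libraries 1 and 4, 9 of the 10 members were called in the comparison of day 3 with day 0, Tlr5 being lost, and without libraries 2 and 3 all 10 were. In bulk tissue, fewer cells of a type and less RNA per cell cannot be told apart, which holds for every value below.

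The receptor of lipopolysaccharide and its co-receptor showed very different changes. Cd14 binds lipopolysaccharide and hands it to Tlr4. Its FPKM was 15.59, 13.98, 15.05 and 14.12 in the 4 libraries of day 0 and 213, 224, 239 and 265 on day 3. The days did not overlap, and the lowest library of day 3 was far above the highest of day 0. Cd14 was 16.7-fold higher on day 3 than on day 0 (log2 fold change 4.06 ± 0.10 SE, n = 4 libraries a day, edgeR adjusted p = 6.04e-22). Its mean was 235 ± 22.2 FPKM (SD, n = 4) on day 3 and 204 ± 18.8 on day 5, a difference that did not pass the test (log2 fold change -0.22, edgeR adjusted p = 0.0801) but did without day 3 library 1 or 2 or day 5 library 4 (edgeR adjusted p = 0.0212 to 0.0400). It then fell to 72.4 ± 8.62, 27.2 ± 2.64 and 10.5 ± 0.47 on days 7, 10 and 12. On day 14 the libraries held 5.76, 6.27, 7.02 and 5.66 FPKM, all below those of day 0 (2.59-fold lower, edgeR adjusted p = 3.65e-12).

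Tlr4, the receptor itself, had an FPKM of 4.32, 5.70, 5.23 and 4.08 on day 0 and of 11.3, 11.9, 11.7 and 12.1 on day 3. Every library of day 3 was above every library of day 0, by a smaller step than for Cd14: 2.53-fold (log2 fold change 1.34 ± 0.09, edgeR adjusted p = 1.19e-13). Tlr4 was 1.92-fold higher than day 0 on day 5 (edgeR adjusted p = 2.28e-10). On day 7 it was 1.24-fold higher (edgeR adjusted p = 0.00384), a call that was lost without day 0 libraries 1 and 4 (log2 fold change 0.14). In the 8 libraries of days 0 and 7 alone Tlr4 did not pass either (0.27, edgeR adjusted p = 0.0823). Its means of 4.47 ± 0.16 on day 10 and 4.85 ± 0.21 on day 12 lay within the range of day 0, and that of day 14, 2.43 ± 0.31, lay below it (2.17-fold lower, edgeR adjusted p = 1.43e-11). The ratio of the FPKM of Cd14 to that of Tlr4 was 3.10 ± 0.54 on day 0, and over days 3, 5 and 12 it was 19.99 ± 1.39, 22.99 ± 4.80 and 2.17 ± 0.18.

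Tlr2 pairs with Tlr1 or with Tlr6 to recognise bacterial lipopeptides, and all 3 genes were higher early. Tlr2 had 5.78, 5.65, 5.73 and 3.78 FPKM on day 0 and 20.1, 20.7, 21.8 and 22.8 at day 3, and the 2 sets of libraries were fully separate. It was 4.24-fold higher (log2 fold change 2.08 ± 0.11, edgeR adjusted p = 2.47e-15) and stayed near that level on day 5, with 19.1 ± 1.05 FPKM (edgeR adjusted p = 0.241 for day 5 against day 3). It was 1.77-fold above day 0 on day 7. On day 10 the difference from day 0 did not pass the test (log2 fold change 0.25, edgeR adjusted p = 0.0637), although it did without day 0 library 1, 2 or 3 (edgeR adjusted p = 0.0318 to 0.0471) and without composition normalization (0.30, edgeR adjusted p = 0.0191). On day 12 it was 1.25-fold lower (edgeR adjusted p = 0.0205), a call that was lost without day 0 library 1, 2 or 3 and without day 12 library 2 or 3. The call was also lost in the 8 libraries of days 0 and 12 alone (edgeR adjusted p = 0.164) and without composition normalization (edgeR adjusted p = 0.178). Limma voom (limma adjusted p = 0.0959) and limma on log2(FPKM + 1) or log2(FPKM + 0.1) lost it too. On day 14 Tlr2 was 3.25-fold lower, at 1.54, 1.85, 1.81 and 1.85 FPKM.

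Tlr1 and Tlr13 had the largest increases of the receptors on day 3 in the fit of all libraries, an order that changed with the day 0 libraries used and with the scale. The day 0 libraries of Tlr1 held 3.96, 1.17, 1.55 and 2.18 FPKM, library 1 standing above the other 3, and those of day 3 held 17.5, 19.0, 16.2 and 18.5. The groups were far apart in spite of that spread, and Tlr1 was 8.34-fold higher (log2 fold change 3.06 ± 0.21, edgeR adjusted p = 2.93e-13). Its log2 fold change was 3.77 without day 0 libraries 1 and 4 and 2.63 without libraries 2 and 3. The level then fell in each of the 5 steps, and the means of days 5, 7, 10, 12 and 14 were 11.2 ± 0.46, 6.76 ± 0.40, 4.21 ± 0.32, 3.03 ± 0.28 and 1.35 ± 0.26 FPKM. The call that day 14 was lower than day 0 (1.80-fold, edgeR adjusted p = 0.00121) was lost without day 0 library 1 (log2 fold change -0.32, edgeR adjusted p = 0.0564). It was also lost in the 8 libraries of days 0 and 14 alone (-0.78, edgeR adjusted p = 0.0838).

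Tlr6 had the lowest level of the members on day 0, with 0.772, 0.504, 0.914 and 0.876 FPKM on day 0. On day 3 it held 4.63, 4.88, 5.07 and 5.25 FPKM, again without overlap. This was a 6.73-fold increase (log2 fold change 2.75 ± 0.14, edgeR adjusted p = 5.37e-16). The increases of days 5, 7 and 10 were 5.20-fold, 2.88-fold and 1.56-fold, and on day 14 Tlr6 was 2.65-fold lower than on day 0 (edgeR adjusted p = 7.38e-09). Tlr1 and Tlr6 resemble each other closely in sequence, and how reads that match both were counted, and whether strand was used, is not given in the sources used here, so their separate levels are uncertain to that extent.

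Tlr5, the receptor of bacterial flagellin, changed least of all in the early wound. It had 2.38, 2.61, 2.78 and 1.90 FPKM on day 0 and 2.75, 3.06, 3.24 and 2.82 on day 3. In FPKM the 2 ranges overlapped slightly, the highest library of day 0 lying above the lowest of day 3, while in log2 CPM scaled by edgeR they did not. The 1.28-fold increase passed the test in the fit reported here (log2 fold change 0.35 ± 0.14, edgeR adjusted p = 0.0249) but not without day 0 libraries 1 and 4 (log2 fold change 0.20, edgeR adjusted p = 0.226) or without normalization for composition (0.30, edgeR adjusted p = 0.0572). On day 5 the difference of 0.24 did not pass (edgeR adjusted p = 0.125), day 5 library 4 being lower, at 1.84 FPKM, than the other 3, at 2.89 to 3.40. Without that library it passed (log2 fold change 0.40, edgeR adjusted p = 0.00511). The decrease was clearer than the increase: over days 10, 12 and 14 Tlr5 was 1.84-fold, 1.61-fold and 3.25-fold lower (edgeR adjusted p = 7.13e-11 for the last), when the libraries held 0.653, 0.847, 0.951 and 0.797 FPKM.

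**Figure D2:**
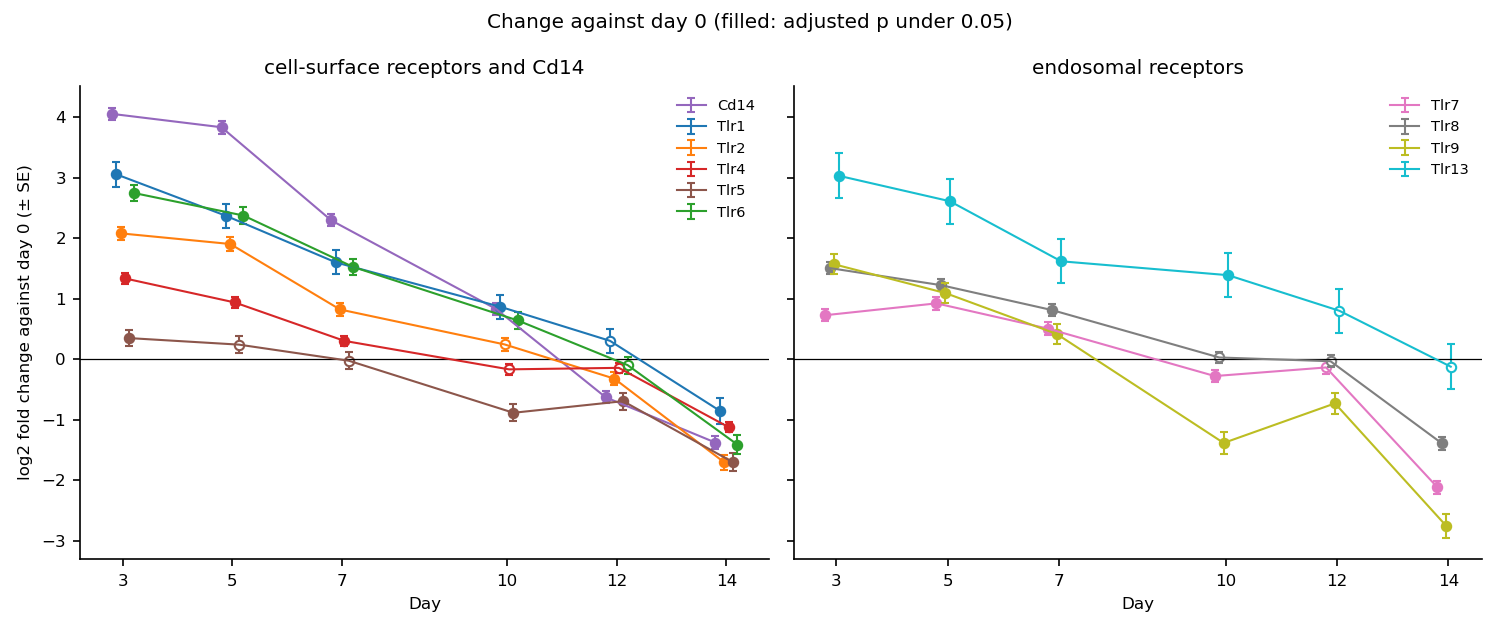
Log2 fold change against day 0 (y) by day (x) from the edgeR fit, with the standard error as bars, for the cell-surface receptors with Cd14 (left) and the endosomal receptors (right). Filled points passed an adjusted p of 0.05. Cd14 starts at 4.06 and Tlr5 at 0.35 on day 3, and Tlr9 goes from -1.38 on day 10 to -0.73 on day 12 and -2.75 on day 14.

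Tlr7 and Tlr8 are receptors of single-stranded RNA. Tlr7 was the member with its highest mean on day 5, at 8.76, 9.11, 8.69 and 6.90 FPKM, against 7.17, 7.40, 6.98 and 7.34 on day 3 and 5.91, 4.05, 3.99 and 4.14 on day 0. Libraries 1 to 3 of day 5 exceeded every day 3 value and library 4 was below them. The difference between days 5 and 3 did not pass the test (log2 fold change 0.20, edgeR adjusted p = 0.163) but did without day 5 library 4 (0.27, edgeR adjusted p = 0.0451). Against day 0, Tlr7 was 1.66-fold higher on day 3 (edgeR adjusted p = 4.18e-07), and 1.90-fold and 1.42-fold higher on days 5 and 7. Its decrease of 1.21-fold on day 10 (edgeR adjusted p = 0.0271) was lost without day 0 library 1 (log2 fold change -0.11) and without day 10 library 1 or 4. In the 8 libraries of days 0 and 10 alone Tlr7 did not pass either (edgeR adjusted p = 0.123). From day 12 to day 14 it fell 3.95-fold (edgeR adjusted p = 1.83e-13), to 1.10, 1.23, 0.995 and 1.25 FPKM.

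Tlr8 had 4.25, 4.04, 4.18 and 3.57 FPKM on day 0 and 10.72, 11.79, 10.47 and 10.96 on day 3. The days did not overlap, with a 2.85-fold increase (log2 fold change 1.51 ± 0.10, edgeR adjusted p = 1.69e-13). It was 2.34-fold higher on day 5 and 1.76-fold higher on day 7, and its means on days 10 and 12, 4.26 ± 0.29 and 4.34 ± 0.41, lay beside that of day 0, 4.01 ± 0.31. On day 14 it was 2.61-fold lower (edgeR adjusted p = 5.28e-12).

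Tlr9, the receptor of unmethylated CpG DNA, had the largest decrease by day 14 and did not descend evenly. The libraries held 2.86, 2.66, 2.89 and 2.94 FPKM on day 0 and 8.83, 8.57, 8.07 and 7.01 on day 3. This was a 2.97-fold increase with no overlap (log2 fold change 1.57 ± 0.16, edgeR adjusted p = 2.51e-09). The FPKM values of day 10 were 0.953, 1.04, 1.49 and 1.04, those of day 12 were 2.04, 1.67, 1.88 and 1.98, and those of day 14 were 0.511, 0.402, 0.407 and 0.518. Every library of day 12 was therefore above every library of day 10 and of day 14. Tlr9 was 2.60-fold below day 0 on day 10 (edgeR adjusted p = 1.91e-07), rose 1.57-fold from day 10 to day 12 (log2 fold change 0.65 ± 0.18, edgeR adjusted p = 0.00395) and then fell 4.07-fold (edgeR adjusted p = 3.13e-09). It was 6.73-fold lower on day 14 than on day 0 (edgeR adjusted p = 1.41e-12). Day 5 library 4 held 3.56 FPKM against 6.12 to 7.48 in the other 3, and without it the decrease from day 3 to day 5 did not pass the test (edgeR adjusted p = 0.109). The 1.34-fold increase on day 7 (edgeR adjusted p = 0.0342) was lost in 5 of the 8 fits that left out a library, those without day 0 library 2 or 3 or day 7 library 1, 2 or 3. It was also lost with limma voom (log2 fold change 0.40, limma adjusted p = 0.204).

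Marker sums of immune cell types, some of which use Tlr9, also moved. The 5 plasmacytoid dendritic cell markers summed to 100.1 to 164.1 CPM on day 0, and over days 3, 10, 12 and 14 to 24.8 to 31.9, 44.4 to 51.5, 36.9 to 40.6 and 22.2 to 25.9, and 5 of the 5 were called lower on day 14, as were 34.5% of all genes. On day 3 this list was mixed, with 1 gene called higher, Spib (log2 fold change 1.73), and 2 lower, Siglech (-1.17) and Cox6a2 (-2.31), which muscle also expresses. Its day 0 sums were higher in the muscle-rich libraries 1 and 4 (123.5 and 164.1 CPM) than in libraries 2 and 3 (100.1 and 104.2). From day 10 to day 12 the sum was lower while the median log2 fold change of the list was 0.53. These 3 genes were named after their values were seen. The 5 B cell markers summed to 2.83 to 3.66 CPM on day 0 and to 1.26 to 1.52 on day 14, where 2 of the 4 tested were called lower, against the same 34.5% of all genes. The 5 conventional dendritic cell markers summed over days 7, 10, 12 and 14 to 49.7 to 58.3, 19.7 to 22.3, 39.9 to 53.0 and 17.8 to 22.7 CPM. The 5 markers of T and NK cells found in the table, of 6 listed, were likewise lower on days 10 and 14 than on days 7 and 12, with 22.0 to 23.9, 11.8 to 17.5, 23.5 to 28.2 and 13.4 to 18.3 CPM on these days, and so were the 5 mast cell markers, with 434 to 505, 283 to 322, 498 to 616 and 190 to 241 CPM. From day 10 to day 12, when 18.7% of all genes were called higher and 20.7% lower, 5 of 5 T and NK cell markers and 5 of 5 mast cell markers were called higher. Of the 5 conventional dendritic cell markers 3 were called higher and 1 lower over that interval, of the 5 plasmacytoid markers 1 higher and 1 lower, and of the 4 B cell markers tested none. The 10 neutrophil markers fell from 228 to 254 CPM on day 10 to 23.1 to 26.2 CPM on day 12. The 10 macrophage markers summed to 2695 to 2839 CPM on day 10 and to 2576 to 2791 CPM on day 12. Of all these markers only Ly6g, a neutrophil marker, was at 0 in all libraries of a day, on days 0 and 12. Their part in the values of Tlr9 was not tested.

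Tlr13 recognises a sequence of bacterial ribosomal RNA and was the receptor with the highest mean FPKM from day 3 on. Its libraries held 8.29, 0.800, 1.03 and 5.13 FPKM on day 0. The values of day 3 were 28.7, 29.8, 30.3 and 31.5, and those of day 14 were 3.56, 4.05, 3.28 and 4.47. Day 3 lay above all of day 0, while the day 14 libraries fell between the 2 high and the 2 low libraries of day 0. The high libraries, 1 and 4, were those with the lower fibroblast and the higher muscle marker sums, whose part in the level of Tlr13 was not tested. Tlr13 was 8.20-fold higher on day 3 (log2 fold change 3.04 ± 0.37, edgeR adjusted p = 5.52e-08). The size of this increase rested on which day 0 libraries were used: the log2 fold change was 5.10 without libraries 1 and 4 and 2.26 without libraries 2 and 3, and the increase passed the test in both. Without day 0 library 1 alone it was 3.82. On day 12 the log2 fold change was 0.80 (edgeR adjusted p = 0.0695), 2.87 without libraries 1 and 4 and -0.003 without libraries 2 and 3, and the test was passed without library 1 (1.56) or library 4 (0.99) alone. On day 14 it was -0.12 (edgeR adjusted p = 0.795), 1.95 without libraries 1 and 4 (edgeR adjusted p = 1.27e-15) and -0.86 without libraries 2 and 3 (edgeR adjusted p = 3.82e-07). These data therefore give no direction for Tlr13 on day 14 against day 0. The increases of days 7 and 10 (3.08-fold and 2.62-fold) did not pass the test when the 8 libraries of each comparison were fitted alone (edgeR adjusted p = 0.0671 and 0.0959). The level of the wound itself was steady between libraries, with means over days 5, 7, 10 and 12 of 22.7 ± 1.25, 11.8 ± 0.78, 10.4 ± 0.59 and 7.36 ± 0.58 FPKM.

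**Figure D3:**
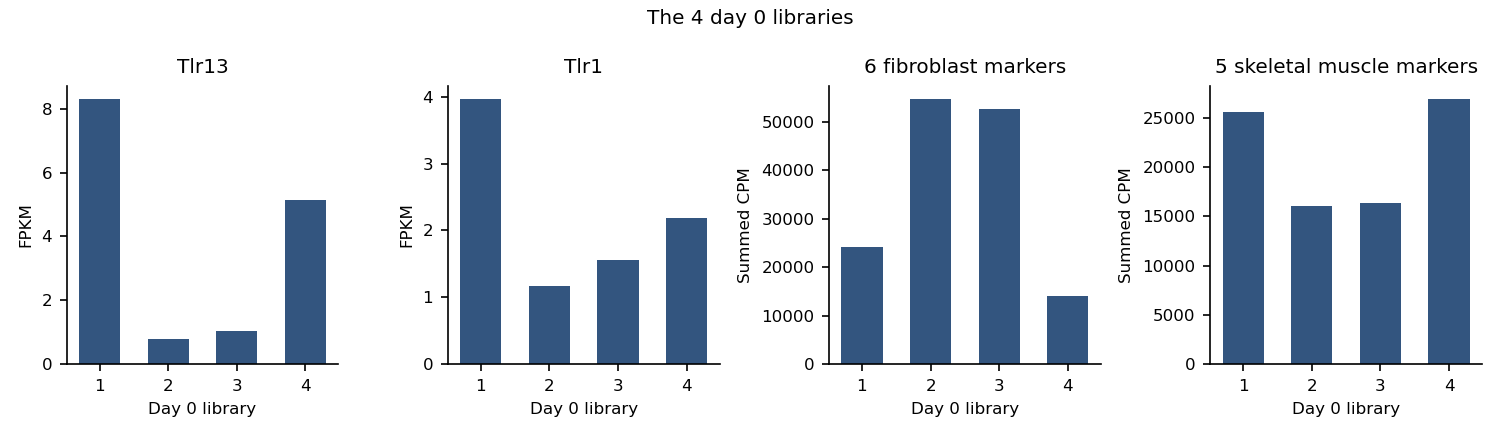
The 4 day 0 libraries (x), with the FPKM of Tlr13 and Tlr1 and the summed CPM of 6 fibroblast and 5 skeletal muscle markers (y, bars from 0). Libraries 1 and 4 hold 8.29 and 5.13 FPKM of Tlr13 and libraries 2 and 3 hold 0.800 and 1.03.

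From each day to the next, the members moved mostly downwards. Between days 3 and 5, 5 members were called lower (11.4% of all genes), namely Tlr1, Tlr4, Tlr6, Tlr8 and Tlr9. The call of Tlr8 was lost without day 5 library 4 (log2 fold change -0.18, edgeR adjusted p = 0.129) and that of Tlr6 without day 5 library 1 (-0.36, edgeR adjusted p = 0.0663). Between days 5 and 7, 9 members were called lower (14.6%), all but Tlr5. The decrease of Tlr13 in that step (log2 fold change -0.99, edgeR adjusted p = 0.0312) was lost without any 1 of the day 7 libraries or day 5 libraries 1 to 3. Its libraries did not overlap, at 20.9 to 23.7 FPKM on day 5 and 10.7 to 12.3 on day 7. The fit shares 1 spread per gene over all days, which for Tlr13 includes the wide day 0. Between days 3 and 5 Tlr13 was not called (edgeR adjusted p = 0.406). In the 8 libraries of these 2 days alone it passed (log2 fold change -0.42, edgeR adjusted p = 8.71e-05). Between days 7 and 10, 9 members were called lower (18% of all genes), all but Tlr13. Between days 10 and 12, Tlr1, Tlr2, Tlr6 and Cd14 were called lower, 4 members against 20.7% of all genes, and Tlr9 was called higher, 1 member against 18.7%. The call of Tlr1 in that step was lost without day 10 library 3 or day 12 library 2 or 3 (edgeR adjusted p = 0.0562 to 0.0735). Between days 12 and 14, 10 of 10 members were called lower, against 25.3% of all genes. The decreases in this last step ranged from 1.68-fold for Cd14 to 4.07-fold for Tlr9. That of Tlr13 (edgeR adjusted p = 0.0389) was lost in each of the 8 fits without a library of day 12 or day 14. There its log2 fold change lay between -0.99 and -0.86. Its libraries did not overlap in this step either, at 6.85 to 8.17 FPKM on day 12 and 3.28 to 4.47 on day 14.

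The order of the receptors by FPKM, which accounts for gene length, changed with the wound. On day 0 the order of the means was Cd14, Tlr2, Tlr4, Tlr7, Tlr8, Tlr13, Tlr9, Tlr5, Tlr1 and Tlr6, and the library ranges of Tlr2, Tlr4, Tlr7 and Tlr8 overlapped, as did those of Tlr13 with all receptors from Tlr2 to Tlr6. On day 3 the order was Cd14, Tlr13, Tlr2, Tlr1, Tlr4, Tlr8, Tlr9, Tlr7, Tlr6 and Tlr5, and of the neighbours Tlr4 and Tlr8 overlapped, as did Tlr9 and Tlr7. Over days 0, 3, 5, 10 and 14 the 9 Toll-like receptors summed to 30.6 ± 5.29, 115 ± 2.98, 92.1 ± 6.32, 37.4 ± 1.88 and 13.8 ± 1.29 FPKM. Of this sum Tlr13 made up 11.5 ± 9.61%, 26.1 ± 0.62% and 27.8 ± 1.56% over days 0, 3 and 14. Tlr7 made up 14.7 ± 0.53%, 6.27 ± 0.13% and 8.30 ± 0.44% on the same days, and Tlr9 made up 9.43 ± 1.35%, 7.06 ± 0.83% and 3.33 ± 0.36%.

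Markers shared by leukocytes, 5 of 5, were called higher on day 3, and each member was therefore also set against Ptprc, which encodes CD45, the surface phosphatase of all leukocytes. Ptprc had 14.7 ± 2.47, 50.4 ± 1.92 and 6.50 ± 1.07 FPKM over days 0, 3 and 14. Of 10 macrophage markers 9 were called higher and 1 lower on day 3, and their sum went from 2216 to 3147 CPM on day 0 to 5459 to 5604 CPM. Of 10 neutrophil markers 9 were called higher and 1 lower, with sums of 16.8 to 41.8 CPM on day 0, when Ly6g was at 0, and 4121 to 5122 CPM on day 3. Of the 5 T and NK cell markers and the 5 mast cell markers 0 were called higher and 4 lower in each list, and of the 5 conventional dendritic cell markers 1 was called higher and 3 lower. Of the 4 B cell markers tested 1 was called higher and 0 lower. On that day 31.8% of all genes were called higher and 34.8% lower. Markers of cells other than leukocytes moved as well. Of the hair follicle markers 5 of 5 were called lower on day 3, from sums of 216 to 1999 CPM on day 0 to 6.70 to 12.2 CPM, and so were 5 of 5 skeletal muscle markers and 5 of 6 keratinocyte markers. Of the erythroid markers 5 of 5 and of the endothelial markers 4 of 5 were called higher, of the 6 fibroblast markers 1 was called higher and 4 lower, and of the 5 adipocyte markers 1 was called higher and 3 lower. The part of these cells in the changes of the members was not tested.

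On day 14, when 9 members were called lower, 10 of 10 macrophage markers and 5 of 5 markers shared by leukocytes were called lower too, against 34.5% of all genes. Their median log2 fold changes were -1.75 and -1.14, beside -1.40 for the 10 members. The macrophage markers summed to 1092 to 1214 CPM on that day, below every day 0 library, and the leukocyte markers to 242 to 269 CPM, against 490 to 599 CPM on day 0. The 10 neutrophil markers were mixed, with 4 called lower and 1 higher. All 6 fibroblast markers and all 5 skeletal muscle markers were called lower (medians -1.20 and -2.32), and 5 of 5 hair follicle markers were called higher (median 2.27), when 28.2% of all genes were. The part of these cells in the day 14 values of the members was not tested.

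Relative to Ptprc, Cd14, Tlr1 and Tlr6 were higher on day 3 than on day 0, and Tlr4, Tlr5, Tlr7 and Tlr8 were lower. The values are log2 CPM of the gene minus that of Ptprc in the same library, compared by a two-sided exact permutation test of 4 against 4 libraries, whose smallest possible p is 0.0286. The p-values are not adjusted over the 60 such comparisons of 10 members on 6 days. Cd14 was 2.20 higher, Tlr1 1.35 and Tlr6 0.92, each with all 4 libraries of day 3 above all 4 of day 0 (exact permutation p = 0.0286 each). Tlr5 was lower by a difference of -1.49, Tlr7 of -1.10, Tlr4 of -0.50 and Tlr8 of -0.34, each without overlap (exact permutation p = 0.0286 each). The difference was 1.82 for Tlr13 and 0.25 for Tlr2 (exact permutation p = 0.0571 each), and -0.28 for Tlr9 (exact permutation p = 0.200), with overlapping libraries in all 3. The direction of some members depended on the reference. Against the mean log2 CPM of the 10 macrophage markers in place of Ptprc, Tlr8 and Tlr9 were higher on day 3 by 0.48 and 0.54 (exact permutation p = 0.0286 each), and the difference of Tlr4 was 0.32 with overlapping libraries (exact permutation p = 0.0571). Tlr5 (-0.66) and Tlr7 (-0.27) were below day 0 by either reference (exact permutation p = 0.0286 each), and Cd14, Tlr1 and Tlr6 were above it by either. Tlr13 and Tlr2, whose libraries overlapped relative to Ptprc, were higher against the macrophage markers by 2.65 and 1.08 without overlap (exact permutation p = 0.0286 each). Relative to Ptprc, Tlr4 was lower than on day 0 over days 3, 5 and 7 (-0.50, -0.35 and -0.25) and higher on days 10 and 12 (0.27 and 0.23), each without overlap (exact permutation p = 0.0286 each). Tlr8, lower on day 3, was likewise higher on days 10 and 12 (0.45 and 0.33), while Tlr5 was lower on every day from 3 to 12 (exact permutation p = 0.0286 each). Without overlap, 5 members were higher and 2 lower on day 5, 4 higher and 2 lower on day 7, and 2 higher and 1 lower on day 12. Against the macrophage markers the day 12 counts were 2 higher and 3 lower. On day 10, Cd14, Tlr1, Tlr2, Tlr4, Tlr6, Tlr8 and Tlr13 were higher by 0.27 to 2.45, and Tlr5 (-0.45) and Tlr9 (-0.97) were lower, again without overlap (exact permutation p = 0.0286 each). Ptprc itself had 11.3 ± 0.76 FPKM on day 10, against 14.7 ± 2.47 on day 0. The share of all genes that separate relative to Ptprc was not computed, so no count here has a background. In log2 CPM with no reference, 23.0%, 19.9%, 19.5% and 18.6% of all genes were higher without overlap on days 5, 7, 10 and 12. The shares lower were 23.2%, 19.3%, 21.9% and 20.2%. On day 14, Tlr9 (-1.42) and Tlr7 (-0.78) were below day 0 relative to Ptprc without overlap (exact permutation p = 0.0286 each), and the libraries of the other 8 members overlapped with day 0. Against the macrophage markers Tlr9 (-1.16) and Tlr7 (-0.52) were again lower and Tlr13 (2.08) and Tlr4 (0.45) were higher, without overlap (exact permutation p = 0.0286 each).

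**Figure D4:**
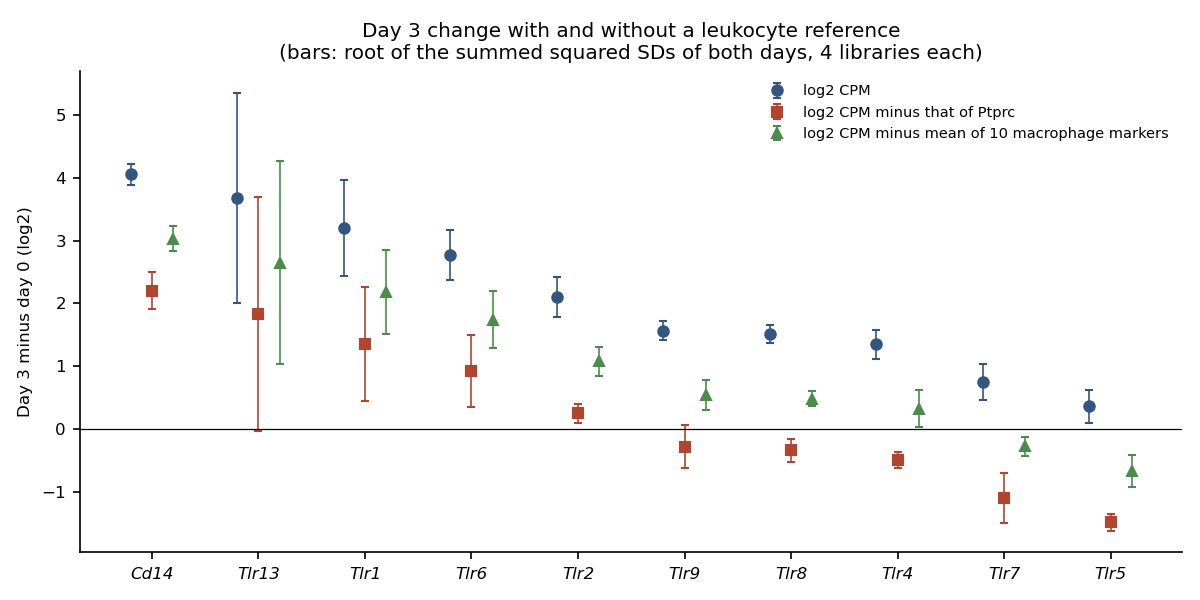
Day 3 minus day 0 (log2, y) for each member (x): circles, log2 CPM; squares, log2 CPM minus that of Ptprc; triangles, log2 CPM minus the mean of 10 macrophage markers. Bars are the root of the summed squared SDs of the 2 days (4 libraries each). Cd14 lies at 2.20 and Tlr5 at -1.49 relative to Ptprc.

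Over the 28 libraries, the genes outside the members whose log2 CPM was most like that of each member were found among 14684 genes with a mean of at least 1 CPM. Pearson's r is given as a description across libraries that share their days. For Cd14 they were Irak2 (r = 0.993) and Ccr1 (0.992), for Tlr1 Lgmn (0.991) and Cd300ld (0.989), for Tlr2 P2rx4 (0.990) and Plekho2 (0.988), and for Tlr4 Cd33 (0.986) and Dock2 (0.986). For Tlr6 they were Acp2 (0.986) and Plek (0.986), for Tlr8 Plekho2 (0.984) and Prex1 (0.984), for Tlr9 Akna (0.985) and Wdfy4 (0.985), and for Tlr13 Cd300c2 (0.982) and Gla (0.975). For Tlr5 they were Iqgap2 (0.984) and Rab11fip5 (0.973), and for Tlr7 Vwa5a (0.974) and Aoah (0.974). Plekho2 stood on the lists of both Tlr2 and Tlr8.

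The other 3 mouse Toll-like receptors differed among themselves on day 3. Tlr3, the receptor of double-stranded RNA, was higher on day 3 by a log2 fold change of 0.48 ± 0.10 (edgeR adjusted p = 7.11e-05). Tlr11, a receptor of protozoan profilin, was lower, at -1.85 ± 0.24 (edgeR adjusted p = 1.40e-07). Tlr12 had 8 to 14 counts a library on day 3 and did not pass the test (-0.26, edgeR adjusted p = 0.584). On day 14, Tlr3 and Tlr11 were called lower (log2 fold changes -0.30 and -2.63), when 34.5% of all genes were, and without day 0 library 2 the number of these 3 called lower was 1.

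Most partners and adaptors of the receptors were called higher on day 3. Of the 8 partners and chaperones tested, 8 were called higher on day 3, when 31.8% of all genes were called higher and 34.8% lower. The largest increase was that of Lbp, the lipopolysaccharide-binding protein that loads Cd14 (log2 fold change 1.68 ± 0.10, edgeR adjusted p = 2.12e-14), and the smallest that of Cnpy3, a chaperone of the receptors in the endoplasmic reticulum (0.37 ± 0.06, edgeR adjusted p = 1.69e-05). On day 14, when 34.5% of all genes were called lower and 28.2% higher, 5 of the 8 were called lower and 1, Cd36, a scavenger receptor, higher, a name taken after its value was seen. Of the 7 adaptors, 6 were called higher on day 3, with the largest increase for Pik3ap1, the adaptor that couples the receptors to PI3-kinase (1.90 ± 0.09, edgeR adjusted p = 3.24e-16). Sarm1, which has been described as a negative regulator of Ticam1, was the 1 called lower (-2.002 ± 0.45, edgeR adjusted p = 0.000297), at 6 to 13 counts a library on day 3. All 7 adaptors were called lower on day 14.

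Most kinases, transcription factors and inhibitors of the pathway were also called higher on day 3. Of 16 kinases and ubiquitin ligases, 11 were called higher and 2 lower on day 3, against 31.8% and 34.8% of all genes, with a median log2 fold change of 0.28, and 1 of the 2 lower calls was lost without day 0 library 1 or 4 or day 3 library 1, 2 or 3. Irak2, a kinase recruited by Myd88, had the largest increase (1.34 ± 0.06, edgeR adjusted p = 8.08e-17), and Peli1, a ubiquitin ligase of the pathway, the largest decrease (-0.30 ± 0.06, edgeR adjusted p = 0.000110). Of 8 transcription factors, 7 were called higher, led by Irf7, the interferon regulatory factor used by the endosomal receptors (1.59 ± 0.30, edgeR adjusted p = 4.12e-05), whose day 0 libraries spread widely (36.4 ± 27.1 FPKM), while Irf3 had a log2 fold change of 0.06 that did not pass the test (edgeR adjusted p = 0.505). Of 13 inhibitors, 10 were called higher and 1 lower, Zc3h12a, an RNase that degrades cytokine mRNAs, having the largest increase (1.76 ± 0.12, edgeR adjusted p = 5.63e-13) and Sigirr, a decoy receptor of the family, being the 1 called lower (-0.52 ± 0.18, edgeR adjusted p = 0.0116). The call of Sigirr was lost without day 0 library 4 or day 3 library 1 or 4. On day 14, 34.5% of all genes were called lower and 28.2% higher. By then 10 of the 13 inhibitors were called lower and 0 higher, and 6 of the 8 transcription factors were called lower and 1 higher, Irf3 (log2 fold change 0.36), or 2 higher without day 0 library 1. The kinases and ubiquitin ligases were mixed on that day, with 7 called lower, 4 called higher and a median log2 fold change of -0.10. Without day 0 library 1 or 4 these kinase counts became 4 lower and 6 higher.

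Genes that the receptors are known to induce, and proteins of injured tissue that have been described as their ligands, had larger median fold changes on day 3 than the members, a difference that was not tested. On day 3, 31.8% of all genes were called higher and 34.8% lower. Of 14 induced targets 13 passed the filter, and 11 of them were called higher on day 3, with a median log2 fold change of 5.18. Acod1, the enzyme that makes itaconate in activated macrophages, went from 0.195 ± 0.17 FPKM on day 0 to 76.3 ± 8.93 on day 3 (log2 fold change 8.68 ± 0.30, edgeR adjusted p = 2.35e-19). Il12b, a subunit of interleukins, had a log2 fold change of 0.23 that did not pass (edgeR adjusted p = 0.573), at 21 to 37 counts a library. On day 10, when 4 members were still called higher, 9 targets were called higher, against 23.5% of all genes, and 1 lower. Of the 7 endogenous ligands, 6 were called higher on day 3 with a median of 5.10. S100a8 and S100a9 stood both on this list and on the list of neutrophil markers. Saa3, an acute phase protein, went from 17.7 ± 22.6 FPKM on day 0 to 4563 ± 350 on day 3 (log2 fold change 8.06 ± 0.61, edgeR adjusted p = 3.61e-12). Its log2 fold change was 9.46 without day 0 library 1 and 7.68 without day 0 library 2 or 3. Hmgb1, a nuclear protein released by dying cells, was the 1 called lower (-0.18 ± 0.06, edgeR adjusted p = 0.00547), a call that was lost without day 0 library 4 or day 3 library 1, 3 or 4. All 7 ligands were called higher on day 10. On day 14 the targets and ligands were mixed, against 34.5% of all genes called lower and 28.2% higher. Of the 13 targets 5 were called lower and 1 higher, Nos2, the inducible nitric oxide synthase (log2 fold change 0.35), with a median of -0.67. The number of targets called higher was 2 without day 0 library 1, 3 without day 0 library 4 and 0 without day 14 library 2, and 4 to 7 were called lower over the libraries left out. Of the 7 ligands 4 were called higher and 2 lower on that day, with a median of 0.51, and without day 0 library 1 or 4 the number called lower was 0 or 1. The 2 lower ligands were Saa3 (log2 fold change -1.68) and S100a9 (-0.89), and Hmgb1, called lower on day 3, was among the higher ones (0.61). Nos2 and S100a9 were named after their values were seen.

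**Figure D5:**
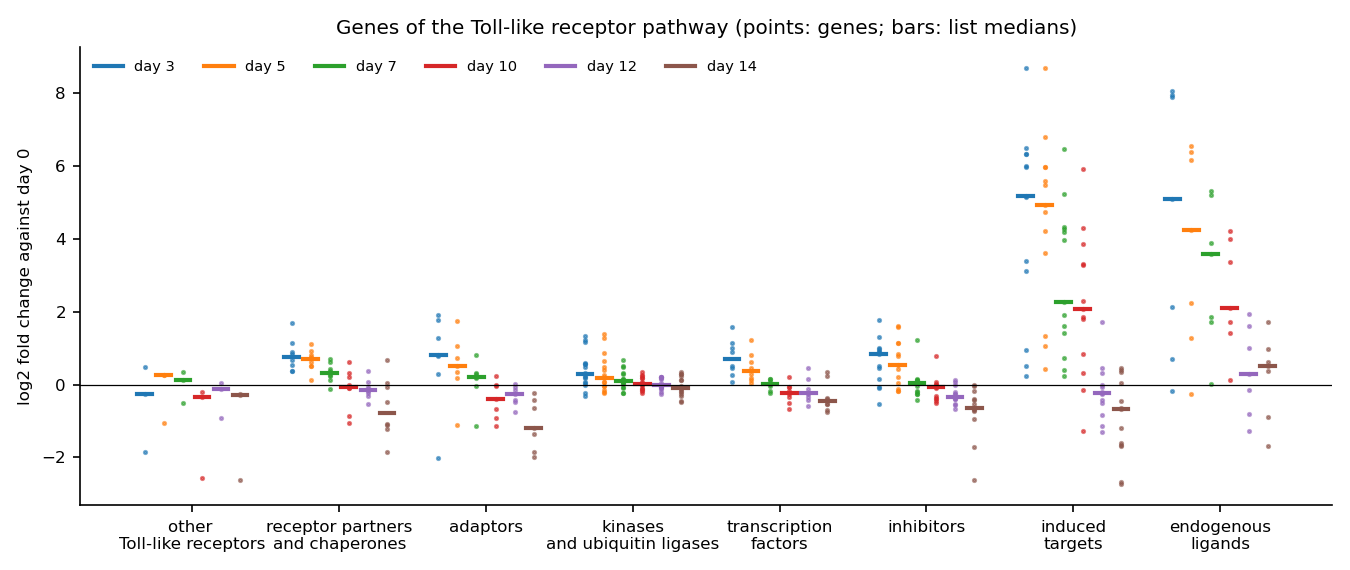
Log2 fold change against day 0 (y) of the genes of 8 lists of the Toll-like receptor pathway (x), a point for each gene and a bar for the list median, coloured by day. The induced targets and the endogenous ligands have medians of 5.18 and 5.10 on day 3, and the other 6 lists have day 3 medians between -0.26 and 0.83.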

How the data were processed

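Whole-wound RNA of 28 libraries was prepared with TRIzol and a VAHTS Universal V6 kit, per the study's methods. The authors deposited raw counts per gene and FPKM values per gene and library, the latter scaled by gene length and depth. The submitters' processing notes name fastp, mm10 and R 3.2.0, while the aligner, the counter, the annotation and the use of strand are not given in the sources used here. The authors' methods used DESeq2. Libraries held 36706513 to 40655764 counts, and groups and library numbers came from the labels.

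Counts were filtered with filterByExpr (18107 of 29068 genes), normalized by TMM and fitted with edgeR 4.0.16 quasi-likelihood over the 28 libraries (21 residual degrees of freedom), with Benjamini-Hochberg adjustment in each comparison. The fit was tested on simulated data. FPKM served for levels, and log2 CPM (prior count 2) for exact permutation tests in SciPy 1.17.1. Alternatives were DESeq2 1.42.0, limma 3.58.1 (voom, and log2(FPKM + 1) or log2(FPKM + 0.1)), other scalings and filters, a replicate block, the 8 libraries of a comparison alone and leaving out each library. Leaving out a pair of day 0 libraries was added after the data were seen. Promoter windows and positions came from RefSeq (GRCm38.p6).

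The members, the pathway and marker lists and the naming rule were chosen with earlier results of these data known. The genes named were the members, Ptprc, Tlr3, Tlr11 and Tlr12, in each pathway list the genes with the largest increase and with the largest decrease or smallest increase on day 3, and for each member the 2 genes most like it. No library was a duplicate of another.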

Additional observations from a re-analysis of the deposited data

Results flagged for a closer look

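In 3 of the 70 groups of 4 libraries formed by the 10 members and 7 days, the highest or lowest library lay far from the other 3 in log2 CPM by Dixon's test, which chance flags in about 1 of 20 groups. Tlr2 had 3.78 FPKM in day 0 library 4, and the other 3 libraries lay between 5.65 and 5.78. Tlr7 had 5.91 FPKM in day 0 library 1, and the others lay between 3.99 and 4.14. Tlr6 had 1.92 FPKM in day 7 library 2, against 2.27 to 2.34 in the other 3.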

How the results depend on the processing

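Of 1984 alternative values for 94 fold changes of the members, 1877 kept their direction and their side of the threshold, 70 lost the call, 28 gained one and 9 reversed. These 94 were the fold changes called in the main fit or chosen for printing, so the remaining uncalled ones are not counted. The reversed values concerned Tlr13. On day 14 its log2 fold change of -0.12 became 0.014 without composition normalization, 0.55 with limma voom, 0.34 on log2(FPKM + 1) with or without a filter at a mean FPKM of 1, 0.60 on log2(FPKM + 0.1) and 1.95 without day 0 libraries 1 and 4, and it ranged from -0.41 to 0.69 when each library was left out. On day 12 it became -0.0030 without day 0 libraries 2 and 3. On day 3 Irf3 changed to -0.032 with upper-quartile scaling and Il12b to -0.061 without day 0 libraries 2 and 3. With macrophage markers in place of Ptprc, Tlr4, Tlr8 and Tlr9 changed sign to 0.32, 0.48 and 0.54 on day 3, and Tlr6, Tlr8 and Cd14 to 0.20, 0.18 and 0.19 on day 14. The count of members called on day 12 in either direction went from 4 to 7 without day 0 libraries 1 and 4. The share of all genes called in that fit was not computed. The replicate block, although the numbers do not pair the libraries (correlations of -0.076 to 0.177 over 84 pairs), left the counts against day 0 at 10, 9, 9, 7, 5 and 9 on the 6 days, the added call being Tlr13 on day 12 (0.91, edgeR adjusted p = 0.0442). Removing composition normalization shifted all log2 fold changes by 0.14 on day 12 and by 0.13 on day 14. The causes were not tested.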
